A study of Mus musculus with 16 samples.

Results

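The 9 genes described here are *Adgre1*, which encodes the adhesion receptor EMR1, the surface protein by which mouse macrophages are commonly identified in flow cytometry, and the genes of 8 transcription factors that establish or adjust macrophage identity: *Spi1*, *Maf*, *Cebpa*, *Cebpb*, *Mitf*, *Tfec*, *Batf3*, and *Klf4*. They were chosen by name from 19505 genes measured, and each had 1 probe set with its symbol. RNA of bone marrow-derived macrophages (BMDM) was measured on 16 Affymetrix arrays. There were 4 arrays each of RM-BMDM and TCM-BMDM from WT mice, and as many of either kind from *Camkk2-/-* mice. WT mice carried both copies of *Camkk2* (Camkk2 +/+ in the labels), and *Camkk2-/-* mice carried no functional copy of this gene for a calcium- and calmodulin-dependent kinase kinase. Marrow of female mice, 10 to 12 weeks old according to the methods, was cultured for 5 days with 30% L929-conditioned medium, which supplies the growth factor CSF1, in all 4 groups. RM-BMDM received regular medium besides, and TCM-BMDM, which the labels name CM, received medium in which E0771 mouse mammary tumor cells had grown. This tumor-conditioned medium made up 20% of the culture according to the labels and 25% according to the methods. The bones of 16 mice per genotype gave 4 biological replicates, and the sources used here do not say how the marrow was divided among the cultures.

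PU.1, the product of *Spi1*, is the ETS family factor that opens the enhancers of myeloid genes and is needed for macrophages to form. C/EBPα and C/EBPβ (*Cebpa* and *Cebpb*) work beside it: C/EBPα drives the step from early progenitors to granulocytes and monocytes, whereas C/EBPβ serves in monocyte survival and in the response to inflammation. c-MAF (*Maf*) restrains self-renewal of mature macrophages and activates *Il10* and complement genes, and MITF and TFEC (*Mitf* and *Tfec*) are E-box factors of osteoclasts and macrophages. BATF3 is an AP-1 partner best known for the type 1 conventional dendritic cell, and KLF4 acts in the differentiation of monocytes.

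Values are log2 signals per probe set. As a measure of background, 23 antigenomic probe sets, which match no mouse sequence, had a median of 5.37 and an upper quartile of 6.10. The median over genes was 5.77 to 5.91 on the 16 arrays, and 54.7% of genes had a mean above the background median. *Camkk2* itself averaged 9.59 ± 0.34 in RM and 9.51 ± 0.25 in TCM (SD, n = 4) in the WT groups, against 6.74 ± 0.67 and 7.65 ± 0.46 in the *Camkk2-/-* groups (log2 differences of -2.85 and -1.85, adjusted p = 6.14e-06 and 0.000387 in limma). WT TCM replicates 1 and 3 deviated most from their group mean (SD over genes of 0.33 and 0.36, against 0.22 to 0.30 for the other arrays), so for the 9 genes the calls that were lost without both, and the larger shifts of *Cebpa* and *Maf*, are also given.

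All 16 arrays entered 1 limma fit, and a gene was taken to rise or fall at a Benjamini-Hochberg adjusted p under 0.05 over 19505 genes. In *Camkk2-/-* cells, 6 of the 9 genes differed between TCM-BMDM and RM-BMDM, where 11.5% of all genes did. *Adgre1*, *Cebpa*, *Mitf*, and *Batf3* fell, as did 5.37% of all genes, and *Maf* and *Tfec* rose, as did 6.13%. In WT cells, *Maf* and *Cebpb* rose with TCM, 2 of 9 genes against 2.91% of all genes in either direction and 2.21% upward. Between genotypes, *Adgre1* and *Batf3* were lower in *Camkk2-/-* TCM-BMDM than in their WT counterpart, 2 of 9 genes against 4.49% of all genes in either direction and 1.79% downward. In RM none of the 9 differed between genotypes in limma's test, against 0.738% of all genes, and 2 of the 9 (*Maf* and *Cebpb*) had an unadjusted p under 0.05, against 8.21% of all genes. The interaction of genotype and medium, which asks whether the TCM response differed between genotypes, passed for none of the 9 and for 0.144% of all genes. At an unadjusted p under 0.05 it included 4 of them (*Adgre1*, *Cebpa*, *Cebpb*, and *Batf3*) and 8.17% of all genes. For none of the 9 genes was the response thus shown to differ between genotypes. With so few genes, counts of this size are descriptions, and the comparisons of *Camkk2-/-* TCM-BMDM with *Camkk2-/-* RM-BMDM and with WT TCM-BMDM share their arrays.

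**Figure D1:**
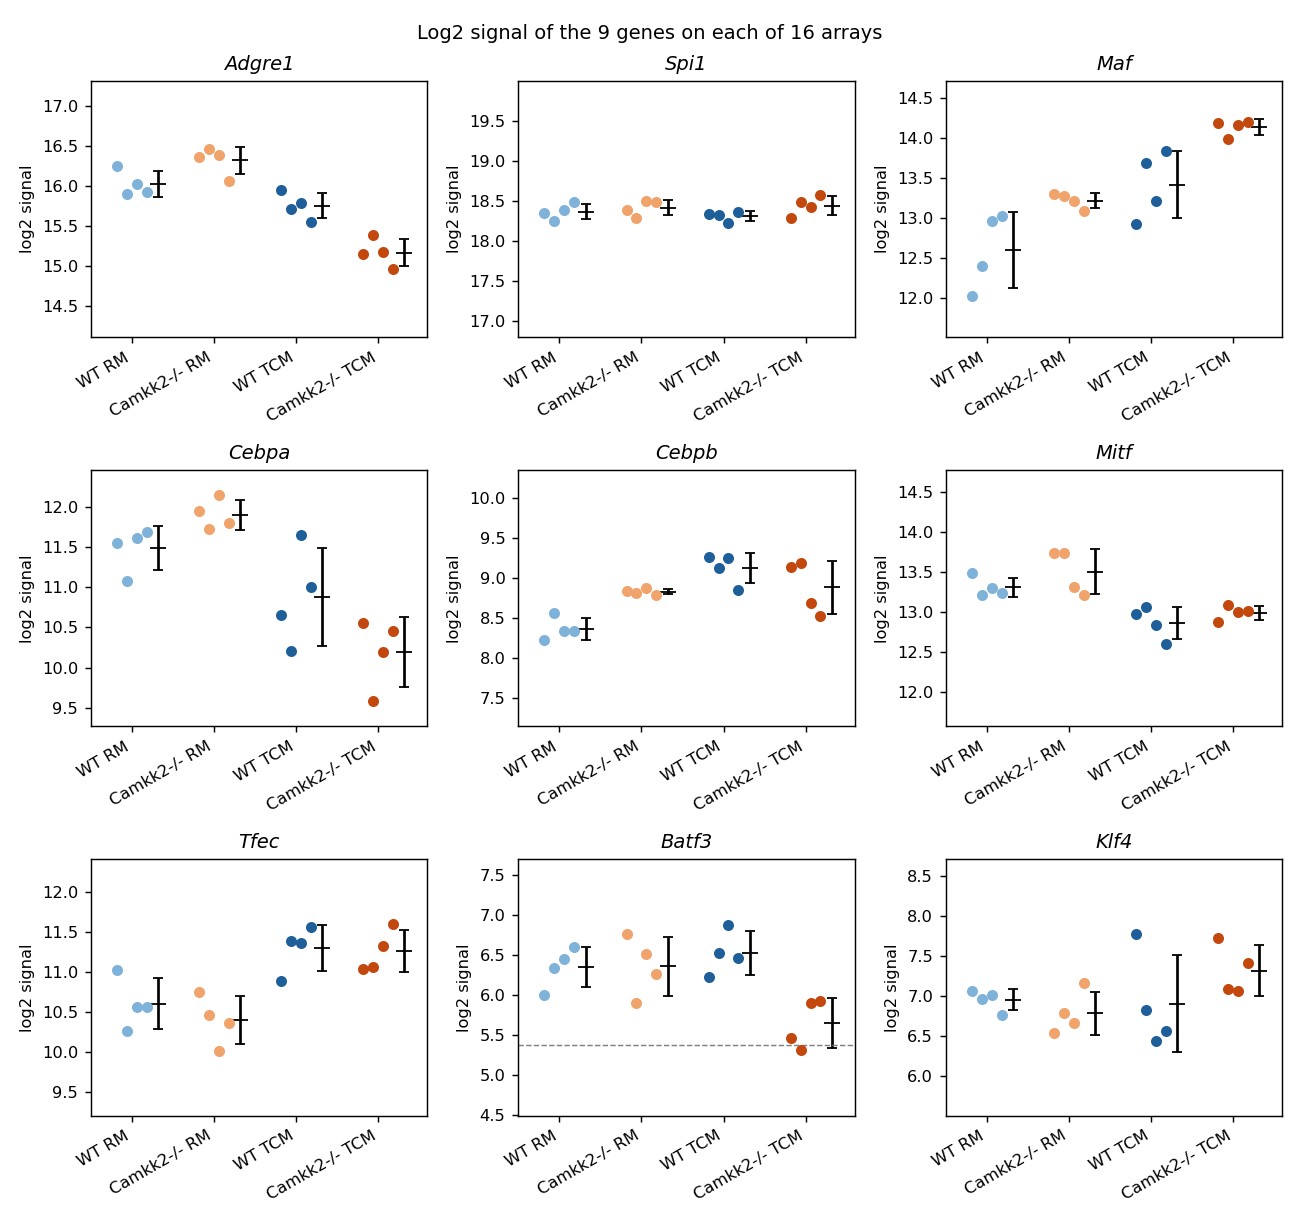
Log2 signal (vertical axis, spanning the same range in every panel) of the 9 genes on 16 arrays, with 1 point per array and mean ± SD of the 4 arrays of each group as black bars. The dashed line in the *Batf3* panel is the background median of 5.37. *Spi1* was level across the groups, *Adgre1* and *Cebpa* were lowest in *Camkk2-/-* TCM-BMDM, and *Maf* was highest there.

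**Figure D2:**
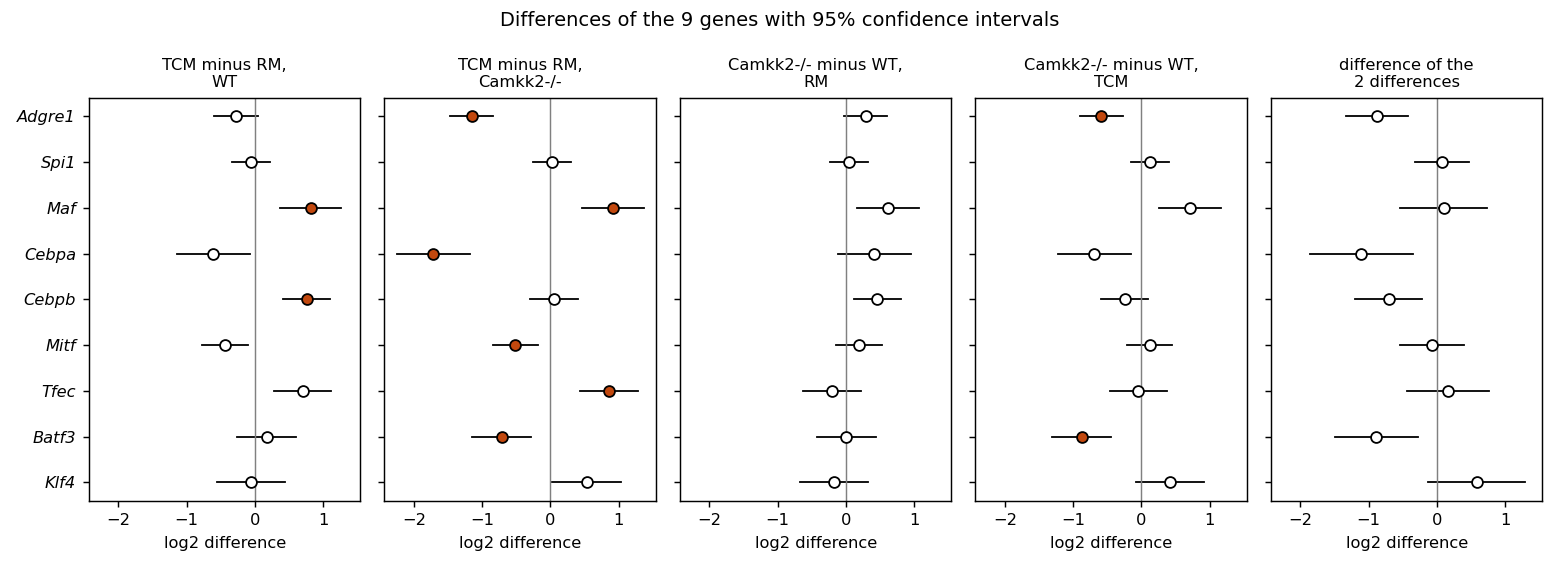
Log2 differences (horizontal axis) with 95% confidence intervals for the 9 genes in the 4 pairwise comparisons and in the interaction. Filled points passed an adjusted p of 0.05. The filled points numbered 2, 6, 0, 2, and 0 from left to right.

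Promoter sequence was found for 6 of the 9 genes (8 windows, 3 of them for *Mitf*), taken from RefSeq on build GRCm38.p6. The 250 bases before the start are shown for *Cebpa*, *Tfec*, and *Batf3*, of which the first and the last fell and the second rose with TCM in *Camkk2-/-* cells. Capitals mark matches, on either strand, to 5 motifs: GAGGAA (a core of PU.1 sites), TTGCNNAA (C/EBP), CACGTG (the E-box of MITF and its relatives), TGANTCA (AP-1 and MAF), and GGGCGGGG (KLF and other GC-box factors).
Cebpa, chr7:35119043-35119292, plus strand: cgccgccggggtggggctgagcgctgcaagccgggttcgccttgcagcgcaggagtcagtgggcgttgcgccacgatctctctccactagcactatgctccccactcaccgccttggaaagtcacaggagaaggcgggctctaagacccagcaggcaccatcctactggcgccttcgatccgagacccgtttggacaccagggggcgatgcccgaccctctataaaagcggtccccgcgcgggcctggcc
Tfec, chr6:16898442-16898691, minus strand: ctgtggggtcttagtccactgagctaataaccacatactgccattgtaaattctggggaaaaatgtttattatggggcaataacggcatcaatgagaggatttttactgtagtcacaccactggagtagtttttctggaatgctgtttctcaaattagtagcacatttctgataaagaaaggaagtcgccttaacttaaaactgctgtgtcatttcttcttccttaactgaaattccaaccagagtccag
Batf3, chr1:191098164-191098413, plus strand: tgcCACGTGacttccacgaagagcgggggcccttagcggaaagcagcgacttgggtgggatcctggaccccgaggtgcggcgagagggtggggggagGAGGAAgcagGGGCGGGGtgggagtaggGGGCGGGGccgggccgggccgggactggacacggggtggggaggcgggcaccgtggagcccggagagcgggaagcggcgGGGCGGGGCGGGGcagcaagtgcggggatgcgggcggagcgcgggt
The *Batf3* window held 1 GAGGAA, 1 CACGTG, and 4 GGGCGGGG, the last pair of which share bases and read as 1 run of capitals. None of the 5 motifs was found in the windows of *Cebpa* and *Tfec*, or in that of *Cebpb*. The *Klf4* window held 1 CACGTG and 4 GGGCGGGG, and 1 of the *Mitf* windows held 1 TTGCNNAA. Of 32851 mouse promoter windows of the same length, 23.3% held GAGGAA, 9.56% TTGCNNAA, 6.02% CACGTG, 6.75% TGANTCA, and 16.1% GGGCGGGG, so a match describes these letters and not a bound site.

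*Adgre1*, an adhesion G protein-coupled receptor, fell with TCM in *Camkk2-/-* cells and was lower there than in WT TCM-BMDM. Its log2 signals were 16.26, 15.90, 16.03, and 15.93 on replicates 1 to 4 of WT RM-BMDM and 16.37, 16.46, 16.39, and 16.07 on those of *Camkk2-/-* RM-BMDM. In TCM they were 15.95, 15.72, 15.79, and 15.56 in WT cells and 15.16, 15.39, 15.18, and 14.97 in *Camkk2-/-* cells. All 4 *Camkk2-/-* TCM arrays lay below the other 12, while the WT TCM and WT RM arrays overlapped. The fall with TCM in *Camkk2-/-* cells was a log2 difference of -1.15 (SE 0.15, 2.22-fold, adjusted p = 2.12e-05), against -0.27 (SE 0.15, adjusted p = 0.453) in WT cells. It passed without any 1 array and in every other setting tried, with an adjusted p of at most 0.000236. In TCM the genotypes differed by -0.58 (SE 0.15, 1.50-fold, adjusted p = 0.0292). That call was lost when *Camkk2-/-* TCM replicate 1, 3, or 4 or WT TCM replicate 1, 2, or 3 was left out (adjusted p = 0.0578 to 0.0929), in the fit to these 8 arrays alone (0.0572), and without WT TCM replicates 1 and 3 together (-0.47, 0.319). The interaction was -0.88 (SE 0.22, adjusted p = 0.143), and it passed with trended and robust variances (0.0426). In these whole cultures, fewer cells with a transcript and less of it per cell cannot be told apart. Most cells of the cultures were scored positive for CD11b and for this receptor by flow cytometry according to the labels, and a signal this far above background was found on every array, the lowest being 14.97.

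*Spi1* had nearly the same signal everywhere. Its 16 arrays lay between 18.22 and 18.57, and the group means ran from 18.31 ± 0.06 in WT TCM-BMDM to 18.44 ± 0.12 in *Camkk2-/-* TCM-BMDM (SD, n = 4). All 4 groups overlapped, and the order of their means does not exceed the spread within them. The differences were -0.05 with TCM in WT cells, 0.03 with TCM in *Camkk2-/-* cells, 0.05 between genotypes in RM, and 0.13 between genotypes in TCM. The 95% intervals of these 4 differences together reached from -0.33 to 0.41. The signal was near the upper end of the values in the file (19.6), and whether the probe set still responds in proportion there was not tested.

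*Cebpa* had the largest fall of the 9 genes with TCM in *Camkk2-/-* cells. The RM arrays read 11.56, 11.08, 11.62, and 11.69 in WT cells and 11.95, 11.73, 12.15, and 11.80 in *Camkk2-/-* cells. In TCM, WT cells gave 10.66, 10.21, 11.65, and 11.00, and *Camkk2-/-* cells 10.55, 9.58, 10.19, and 10.45. The *Camkk2-/-* arrays of the 2 media were separated by more than 1 log2 unit, whereas WT TCM replicate 3 lay among the WT RM arrays. The difference with TCM was -1.72 (SE 0.26, 3.28-fold, adjusted p = 8.76e-05) in *Camkk2-/-* cells, and every setting kept the call (adjusted p at most 0.000541). In WT cells it was -0.61 (SE 0.26, adjusted p = 0.272), which became -0.87 and passed (0.0459) without WT TCM replicate 3 and -0.39 (0.612) without replicate 2. Between genotypes, *Cebpa* was 0.42 higher in RM, where the groups did not overlap, and 0.69 lower in TCM, and neither difference passed (adjusted p = 0.765 and 0.166). The TCM difference between genotypes passed without WT TCM replicate 2 (-0.91, 0.046) and was -0.43 (0.466) without replicate 3 and -0.41 (0.683) without replicates 1 and 3. The interaction was -1.11 (SE 0.36, adjusted p = 0.345).

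*Cebpb*, by contrast, rose with TCM in WT cells. WT RM arrays read 8.23, 8.56, 8.33, and 8.33, and WT TCM arrays 9.26, 9.12, 9.25, and 8.85. The *Camkk2-/-* RM arrays were close together at 8.83, 8.81, 8.87, and 8.79, and those in TCM were spread over 9.14, 9.18, 8.68, and 8.52. The WT RM arrays lay below all WT TCM and all *Camkk2-/-* RM arrays, and *Camkk2-/-* TCM replicates 3 and 4 lay below the *Camkk2-/-* RM arrays. The rise in WT cells was 0.76 (SE 0.17, 1.69-fold, adjusted p = 0.0124). It passed without any 1 array and was lost without WT TCM replicates 1 and 3 together (0.62, adjusted p = 0.148). In *Camkk2-/-* cells the difference was 0.05 (95% interval -0.29 to 0.40), and the interaction was -0.71 (SE 0.23, adjusted p = 0.352). In RM, *Camkk2-/-* cells were 0.46 higher than WT cells (SE 0.17, adjusted p = 0.336).

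Both genotypes had more *Maf* signal in TCM. WT RM arrays read 12.02, 12.40, 12.96, and 13.02, and *Camkk2-/-* RM arrays 13.30, 13.27, 13.21, and 13.09. In TCM, WT arrays read 12.93, 13.69, 13.21, and 13.83 and *Camkk2-/-* arrays 14.19, 13.98, 14.16, and 14.20. In each medium all 4 *Camkk2-/-* arrays were above all 4 WT arrays, and the WT arrays were spread over almost 1 log2 unit. TCM raised *Maf* by 0.92 in *Camkk2-/-* cells (SE 0.22, 1.89-fold, adjusted p = 0.00692), which no 1 array removed, and by 0.82 in WT cells (SE 0.22, 1.76-fold, adjusted p = 0.0452). The WT call lay close to the threshold: it was lost without WT RM replicate 1 or 2, WT TCM replicate 2 or 4, or any 1 of the 8 *Camkk2-/-* arrays (adjusted p = 0.0538 to 0.171), in the fit to the 8 WT arrays alone (0.182), and after median centring (0.0815) or quantile normalization (0.101). *Camkk2-/-* cells exceeded WT cells by 0.62 in RM (SE 0.22, adjusted p = 0.321) and by 0.72 in TCM (SE 0.22, adjusted p = 0.0672). The second of these passed without WT RM replicate 1 (0.0377) or WT TCM replicate 4 (0.0381). It also passed with trended and robust variances (0.0405) and with the lowest 40% of genes left out (0.0441). Without WT TCM replicates 1 and 3 it was 0.37 (0.655), and the rise in WT cells was 1.16 (0.00882). The interaction was 0.10 (95% interval -0.54 to 0.74, adjusted p = 0.972).

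Of the E-box factors, *Mitf* fell and *Tfec* rose with TCM in *Camkk2-/-* cells. *Mitf* read 13.48, 13.21, 13.30, and 13.24 in WT RM-BMDM and 13.74, 13.74, 13.31, and 13.21 in *Camkk2-/-* RM-BMDM. In TCM the WT arrays gave 12.97, 13.06, 12.83, and 12.60, and the *Camkk2-/-* arrays 12.87, 13.08, 13.00, and 13.01. No TCM array reached an RM array in either genotype. The fall in *Camkk2-/-* cells was -0.51 (SE 0.16, 1.43-fold, adjusted p = 0.0423). In WT cells the difference was -0.44 (SE 0.16, adjusted p = 0.182), and it passed after quantile normalization (-0.59, 0.0374). The *Camkk2-/-* call was lost without WT RM replicate 3, *Camkk2-/-* RM replicate 1 or 2, or any *Camkk2-/-* TCM array (adjusted p = 0.0507 to 0.127), in the fit to the 8 *Camkk2-/-* arrays alone (0.0586), and without WT TCM replicates 1 and 3 together (0.0501). Genotypes differed by 0.20 in RM and 0.12 in TCM, within the spread of the arrays.

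*Tfec* read 11.03, 10.26, 10.56, and 10.56 in WT RM-BMDM and 10.75, 10.46, 10.02, and 10.37 in *Camkk2-/-* RM-BMDM. In TCM it read 10.89, 11.39, 11.37, and 11.56 in WT cells and 11.04, 11.07, 11.33, and 11.60 in *Camkk2-/-* cells. Only WT RM replicate 1 reached into the TCM arrays of its genotype. The rise was 0.86 in *Camkk2-/-* cells (SE 0.20, 1.82-fold, adjusted p = 0.00651), kept without any 1 array (adjusted p at most 0.0322). In WT cells it was 0.70 (SE 0.20, adjusted p = 0.0703), and it passed without WT RM replicate 1 (0.0366) or WT TCM replicate 1 (0.033). It also passed with the lowest 40% of genes left out (0.0454). The genotypes differed by -0.21 in RM and -0.04 in TCM (95% interval of the latter -0.47 to 0.38).

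*Batf3* was close to background. Its arrays read 6.00, 6.34, 6.45, and 6.60 in WT RM-BMDM and 6.76, 5.90, 6.51, and 6.26 in *Camkk2-/-* RM-BMDM. In TCM they read 6.23, 6.52, 6.88, and 6.46 in WT cells, against 5.46, 5.31, 5.90, and 5.92 in *Camkk2-/-* cells. None of the 4 *Camkk2-/-* TCM arrays was above the upper quartile of background and 1 was below its median, so a fall to this level ends near the limit of what the probe set can measure. *Batf3* was lower in *Camkk2-/-* TCM-BMDM than in their WT counterpart by a log2 difference of -0.88 (SE 0.21, 1.83-fold, adjusted p = 0.0156), with no overlap, and lower than in *Camkk2-/-* RM-BMDM by -0.71 (SE 0.21, adjusted p = 0.029), with overlap. The first call was lost when *Camkk2-/-* TCM replicate 1 or 2 or WT TCM replicate 3 was left out (adjusted p = 0.0568 to 0.0704) and without WT TCM replicates 1 and 3 together (0.107). The second was lost without *Camkk2-/-* RM replicate 1 or 3 or *Camkk2-/-* TCM replicate 1 or 2 (0.0823 to 0.107). In WT cells the difference with TCM was 0.18 (adjusted p = 0.796), and the interaction was -0.89 (SE 0.29, adjusted p = 0.351).

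*Klf4* showed no difference that passed. WT RM arrays read 7.07, 6.97, 7.01, and 6.77, *Camkk2-/-* RM arrays 6.54, 6.79, 6.66, and 7.16, WT TCM arrays 7.78, 6.83, 6.44, and 6.57, and *Camkk2-/-* TCM arrays 7.73, 7.09, 7.06, and 7.41. WT TCM replicate 1 stood above the rest of its group. The largest pairwise difference was 0.53 with TCM in *Camkk2-/-* cells (SE 0.24, adjusted p = 0.177). That between genotypes in TCM was 0.42 (adjusted p = 0.45), which became 0.71 and passed without WT TCM replicate 1 (0.0443).

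The counts of members called moved with single arrays. In WT cells the count with TCM was 1 to 3 of 9 without any 1 array, and in TCM the count between genotypes was 0 to 3. The count with TCM in *Camkk2-/-* cells was 4 to 6, and that between genotypes in RM was 0 throughout. By the plainer criterion that the 4 arrays of a group do not overlap with those of the other, 5 of the 9 genes were separated by TCM in *Camkk2-/-* cells (18.7% of all genes) and 2 in WT cells (7.08%). Genotypes were separated for 3 of the 9 in TCM (10.8% of all genes) and for 3 in RM (4.34%). The 3 in RM, *Maf*, *Cebpa*, and *Cebpb*, were all higher in *Camkk2-/-* cells, as were 2.61% of all genes.

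Relatives of these factors were counted next, with 20 of 22 measured (paralogs of the PU.1, MAF, C/EBP, MiT/TFE, BATF, and KLF classes and of the *Adgre1* family). With TCM, 3 rose in WT cells and 6 in *Camkk2-/-* cells, none fell, and 3 were higher in *Camkk2-/-* TCM-BMDM than in their WT counterpart. Of all genes, 2.21% rose and 0.697% fell with TCM in WT cells, and 6.13% rose and 5.37% fell in *Camkk2-/-* cells. In *Camkk2-/-* TCM-BMDM, 2.7% were higher and 1.79% lower than in their WT counterpart. The same shares apply to the lists that follow. The median log2 difference of the list was 0.28 in WT and 0.15 in *Camkk2-/-* cells, against 0.04 and 0.01 over all genes. *Batf2*, a BATF3 relative that takes part in interferon responses, rose by 1.40 in WT cells (adjusted p = 0.00738) and by 2.52 in *Camkk2-/-* cells (3.38e-06), and was 1.69 higher in *Camkk2-/-* TCM-BMDM than in their WT counterpart (0.000989). In the last 2 of these comparisons *Batf3* was lower, and in WT cells it differed by 0.18 (adjusted p = 0.796). *Ddit3* (CHOP), the stress-induced C/EBP member, rose by 1.55 in *Camkk2-/-* cells (adjusted p = 0.000102), where *Cebpa* fell, and *Klf6* rose by 0.56 in WT cells and 0.81 in *Camkk2-/-* cells (0.0386 and 0.000622). *Mafk*, a small MAF without an activation domain, was 1.28 higher in *Camkk2-/-* TCM-BMDM than in their WT counterpart (adjusted p = 0.000178). *Tfe3* and *Tfeb*, the other E-box relatives of MITF, differed by -0.29 and -0.22 with TCM in WT cells and by -0.50 and -0.01 in *Camkk2-/-* cells, none of which passed.

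Among 19 of 20 other myeloid transcription factors measured, 4 rose with TCM in WT cells, and 4 rose and 1 fell in *Camkk2-/-* cells. The median was 0.12 in WT and 0.16 in *Camkk2-/-* cells. *Runx3* rose by 1.86 in WT cells (adjusted p = 5.05e-06) and by 2.77 in *Camkk2-/-* cells (7.66e-09), and was 0.98 higher in the latter in TCM (0.00261). Its RM means of 5.68 and 5.75 lay below the upper quartile of background. *Id2*, an inhibitor of E proteins, rose by 1.25 and 1.23 (0.000536 and 0.000115). *Egr2*, a zinc-finger factor of macrophage activation, fell by 1.78 in *Camkk2-/-* cells (1.55e-06), differed by -0.32 in WT cells (0.489), and was lower in *Camkk2-/-* TCM-BMDM than in their WT counterpart by -1.22 (0.000469). Its interaction passed (-1.46, adjusted p = 0.0255), unlike that of any of the 9 genes. *Bhlhe41*, a self-renewal factor of macrophages, rose by 1.10 in WT cells (0.00248) and was lower in *Camkk2-/-* than in WT cells in TCM by a log2 difference of -1.35 (0.000289).

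Known targets were counted for PU.1 and C/EBP, for MITF and TFE, and for c-MAF. Of 17 of 18 PU.1 and C/EBP targets measured, 5 rose with TCM in WT cells, and 5 rose and 3 fell in *Camkk2-/-* cells, with medians of -0.01 and -0.07. *Mpo* and *Elane*, which encode granule proteins of neutrophil precursors, are 2 of the 5 that rose in WT cells and *Mpo* is 1 of the 5 in *Camkk2-/-* cells, and both also stand on the neutrophil marker list. *Csf1r*, the CSF1 receptor, fell by 0.81 in *Camkk2-/-* cells (adjusted p = 0.00179) and differed by -0.22 in WT cells (0.611). *Fcgr1*, the high-affinity IgG receptor, rose by 1.22 and 1.53 (0.0011 and 1.74e-05), as did *Il1b* by 2.50 and 2.15 (0.00168 and 0.00155), and *Tlr4* rose by 0.83 in *Camkk2-/-* cells (5e-04). *Itgam* and *Itgb2*, which encode the CD11b and CD18 chains of 1 integrin, fell by 0.54 and 0.74 in *Camkk2-/-* cells (0.0174 and 0.00945) against the list genes that rose.

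The 8 MITF and TFE targets, osteoclast and lysosome genes, held 1 that fell in WT and 2 that fell in *Camkk2-/-* cells, and none that rose in either (unadjusted p under 0.05 for 2 and 4 genes in either direction). *Dcstamp*, needed for osteoclast fusion, fell by 2.84 in WT cells (adjusted p = 0.000622) and 3.27 in *Camkk2-/-* cells (2.32e-05). *Atp6v0d2*, a subunit of the vacuolar proton pump, fell by 1.23 in *Camkk2-/-* cells (3.38e-05) and was lower in *Camkk2-/-* TCM-BMDM than in their WT counterpart by -1.07 (0.000568). The median of the list was 0.13 in WT and 0.05 in *Camkk2-/-* cells. *Ostm1* and *Gpnmb* did not pass in any pairwise comparison (smallest adjusted p 0.137 and 0.157).

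Of 5 c-MAF targets, 2 rose in WT cells, and 2 rose and 1 fell in *Camkk2-/-* cells, with medians of 0.38 and -0.53. *Il10* rose by 1.14 and 1.25 (adjusted p = 0.00997 and 0.0012). *Cd5l*, a secreted scavenger protein, rose by 1.54 and 0.57 (1.99e-05 and 0.0304) and was 0.97 higher in *Camkk2-/-* than in WT RM-BMDM (0.00358). *C1qb* fell by 0.53 in *Camkk2-/-* cells (0.0324), where *Maf* itself rose, and *C1qc* did not pass (smallest adjusted p 0.0714).

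**Figure D3:**
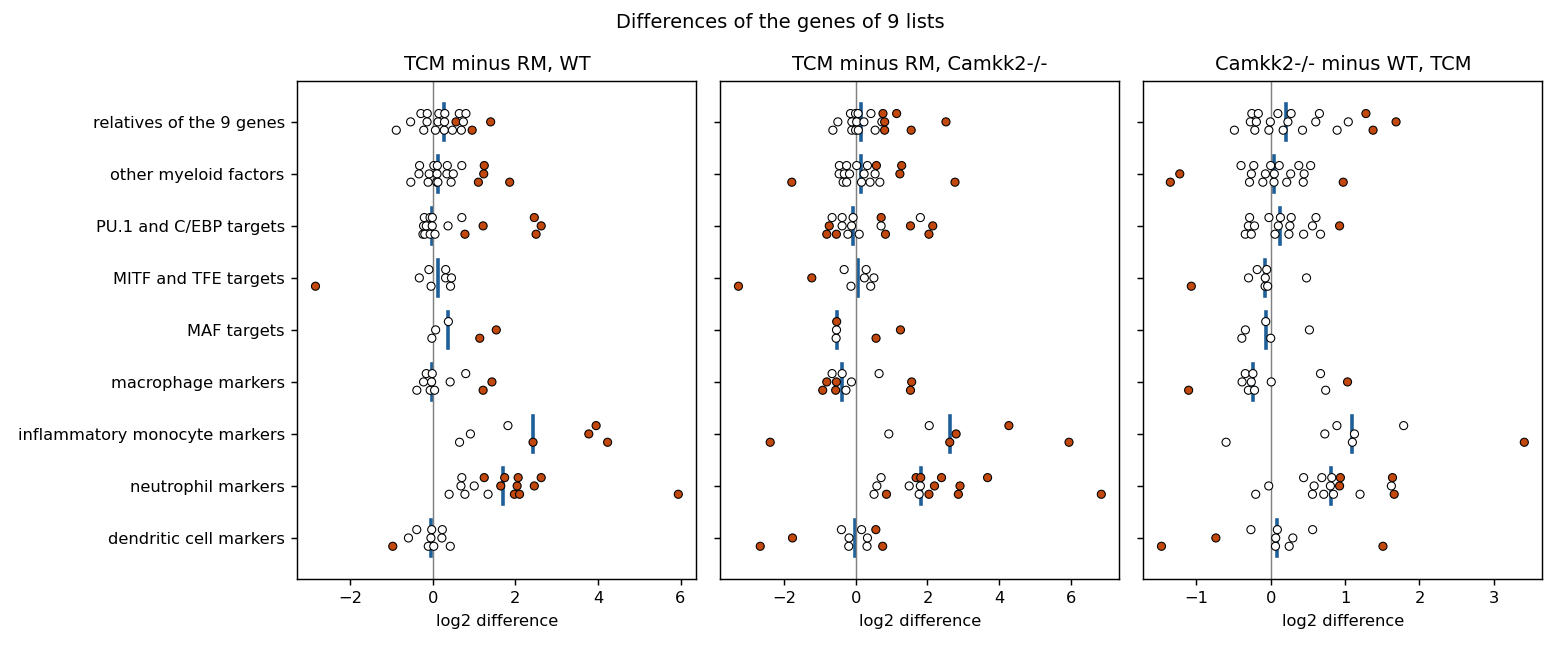
Log2 differences (horizontal axis) of the measured genes of 9 lists in the TCM response of each genotype and between genotypes in TCM. Points are genes, filled at an adjusted p under 0.05, and blue bars are medians; the horizontal scales differ between panels. Medians of the neutrophil and inflammatory monocyte lists lay well above 0, and those of the 5 c-MAF targets at 0.38 in WT and -0.53 in *Camkk2-/-* cells with TCM.

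Markers of other myeloid cells moved with the same comparisons. Of 16 of 17 neutrophil markers measured, 10 rose with TCM in WT and 10 in *Camkk2-/-* cells and none fell, and 4 were higher in *Camkk2-/-* TCM-BMDM than in their WT counterpart. *Stfa2*, a stefin of neutrophil precursors, rose by 5.95 and 6.85 (adjusted p = 1.27e-10 and 8.64e-12), from RM means of 5.05 in WT and 5.78 in *Camkk2-/-* cells. Also, *S100a9* rose by 2.04 and 2.91 (0.00306 and 1.46e-05), *Cxcr2* by 1.65 and 2.20 (0.00047 and 3e-06), and *Stfa3* by 2.07 and 3.68 (6.99e-05 and 1.12e-08), with RM means of *Stfa3* at 4.87 and 4.92. The RM means of both stefins were below the upper quartile of background, so that the sizes of their differences depend on the background level. The log2 of the summed signal of the list was 15.18 to 15.80 on WT RM arrays, 15.55 to 16.25 on *Camkk2-/-* RM arrays, 15.99 to 17.28 on WT TCM arrays, and 16.95 to 17.77 on *Camkk2-/-* TCM arrays. Over all 16 arrays, the marker *Camp* had a mean below the background median, and the other 15 were above it.

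Of 7 of 8 inflammatory monocyte markers measured, 4 rose with TCM in WT cells, and 4 rose and 1 fell in *Camkk2-/-* cells. *Plac8* rose by 4.23 and 5.95 (adjusted p = 2.87e-06 and 8.08e-09), *Ly6c2* by 3.96 and 4.27 (0.00013 and 8.46e-06), and *Hp* by 3.78 and 2.80 (4.87e-05 and 0.000144). Fibronectin (*Fn1*) fell by 2.39 in *Camkk2-/-* cells (0.000265) against the rest of the list. The log2 of the summed signal was 13.41 to 14.91, 14.33 to 15.71, 15.01 to 17.54, and 17.79 to 18.89 on the arrays of WT RM, *Camkk2-/-* RM, WT TCM, and *Camkk2-/-* TCM. In RM, 2 of these markers (*Fn1* and *Hp*, by 2.70 and 2.11) were already higher in *Camkk2-/-* cells (0.000668 and 0.0197), as were 0.446% of all genes. In TCM, 1 of the 7 (*Plac8*, by 3.41) was higher in *Camkk2-/-* than in WT cells (4.19e-05), and none was lower. All 7 were above the background median.

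Of 11 of 12 macrophage markers measured, all above background, 2 rose in WT cells, and 2 rose and 4 fell in *Camkk2-/-* cells. The medians were -0.01 and -0.38. *Aif1* rose by 1.43 and 1.56 (adjusted p = 0.000801 and 5.72e-05). Between genotypes in TCM, 1 of these markers was higher and 1 lower in *Camkk2-/-* cells. *Aif1* was higher by 1.03 (0.00886), and *Mrc1*, the mannose receptor, was lower by a log2 difference of -1.10 (0.0117). The log2 of the summed signal of the list was 20.12 to 20.43, 20.26 to 20.40, 20.18 to 20.25, and 19.95 to 20.22 in the same order of groups. With TCM in *Camkk2-/-* cells, the falls of *Adgre1*, *Cebpa*, and *Csf1r* thus stood beside rises of the macrophage markers *Fcgr1* (1.53) and *Aif1*. They also stood beside rises of most measured neutrophil and monocyte markers, while *Fn1* fell. Whether neutrophils or monocytes were present and had a part in these results was not tested.

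On single arrays, WT TCM replicate 3 had the lowest mean level of the neutrophil and monocyte lists in its group (-0.21 and -0.70 relative to the mean of all arrays, against 0.42 to 1.06 and 0.41 to 1.63 for the other 3). The same array had the highest *Cebpa* of its group (11.65) and the highest *Batf3* (6.88). In *Camkk2-/-* TCM-BMDM, replicate 4 had the lowest level of both lists (0.80 and 1.11), the lowest *Adgre1* (14.97), and the highest *Batf3* (5.92). The highest *Cebpa* of that group was on replicate 1 (10.55, against 10.45 on replicate 4). *Batf3* was 5.90 on replicate 3, which had the highest neutrophil level of the group (2.02). Whether these levels go together was not tested.

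**Figure D4:**
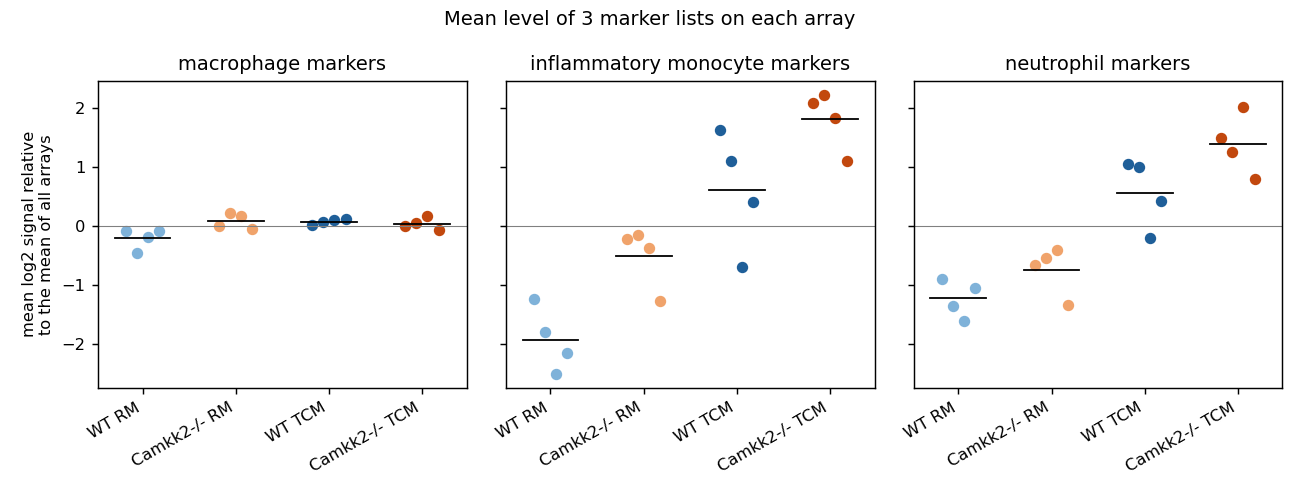
Mean log2 signal of the macrophage, inflammatory monocyte, and neutrophil marker lists on each array, relative to the mean of all 16 arrays (vertical axis), with 1 point per array and group means as black lines. The monocyte and neutrophil lists were lowest in WT RM-BMDM and highest in *Camkk2-/-* TCM-BMDM, with WT TCM replicate 3 at -0.70 and -0.21, and the macrophage list stayed between -0.46 and 0.22.

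Because BATF3 is best known from dendritic cells, 10 dendritic cell markers were examined, of which 1 fell with TCM in WT cells, and 2 rose and 2 fell in *Camkk2-/-* cells. Among markers of type 1 conventional dendritic cells, *Clec9a*, *Xcr1*, and *Itgae* averaged 4.63, 4.11, and 4.67 over all arrays, below the background median. *Flt3* and *Zbtb46* (4.37 and 3.87) were also below it. *Cadm1* and *Wdfy4* of the same list were above it, with means of 12.56 and 7.53. *Irf8*, the partner of BATF3 that macrophages also express, averaged 11.82 and did not pass in any pairwise comparison. *Itgax* (CD11c) fell by 2.66 in *Camkk2-/-* cells (adjusted p = 2.65e-06), was lower in *Camkk2-/-* TCM-BMDM than in their WT counterpart by -1.47 (0.00476), and had an interaction that passed (-2.28, 0.0255). *Cadm1* fell by 0.97 in WT and 1.76 in *Camkk2-/-* cells (0.00408 and 1.21e-06), and *Siglech* was 1.51 higher in *Camkk2-/-* TCM-BMDM than in their WT counterpart (0.0113). *Zbtb46* and *Flt3* passed with TCM in *Camkk2-/-* cells (0.56 and 0.75, adjusted p = 0.0236 and 0.0466), although their group means stayed below the background median.

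Across the 16 arrays, the 9 genes fell into pairs that varied together and pairs that varied oppositely. These correlations are descriptions, since the arrays share 4 groups and 1 normalization. *Adgre1* followed *Cebpa* (Pearson r = 0.80) and *Mitf* (0.73), and was opposite to *Maf* (-0.75) and *Tfec* (-0.70). After the group means were removed, which leaves the variation among replicates, *Adgre1* and *Mitf* kept 0.65 and *Adgre1* and *Maf* -0.53, while *Adgre1* and *Cebpa* gave -0.16. *Cebpb* and *Tfec* gave 0.24 over all arrays and -0.71 within groups. *Mitf* and *Tfec*, close paralogs, gave -0.61 over all arrays and 0.32 within groups.

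**Figure D5:**
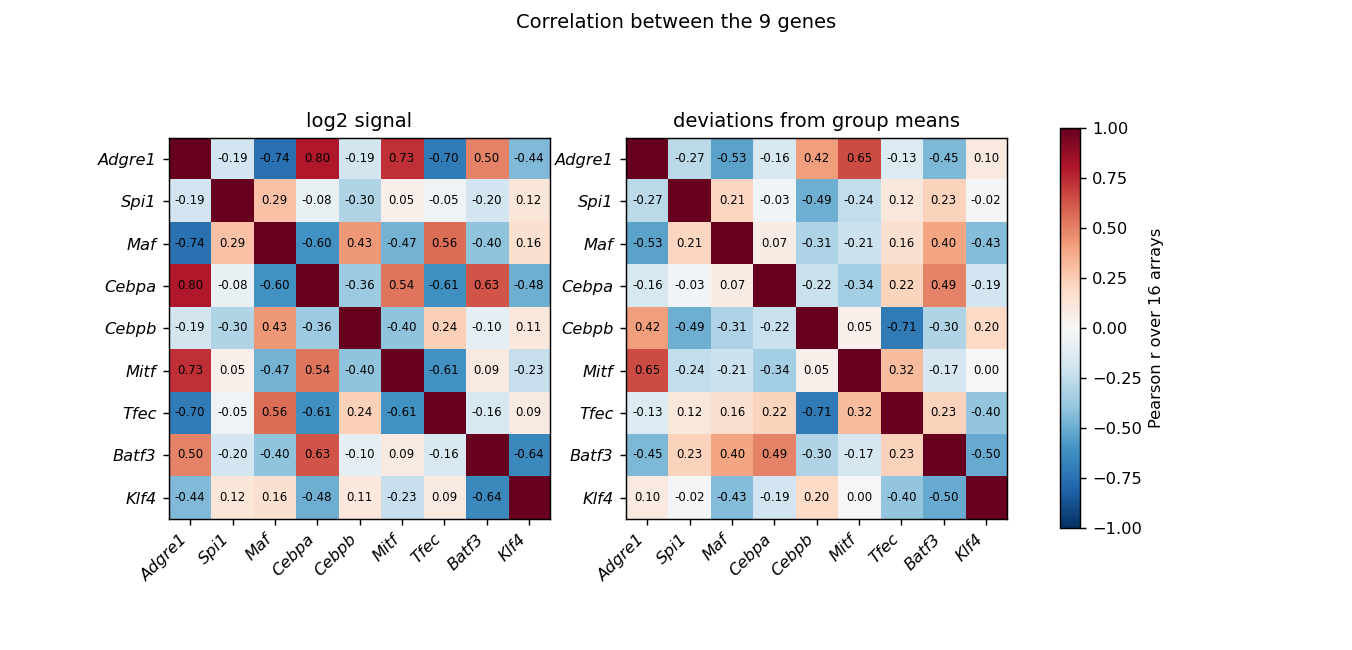
Pearson correlation between the 9 genes over 16 arrays, for log2 signals (left) and for deviations from the group means (right), with the value in each cell and color from -1 to 1. The block of *Adgre1*, *Cebpa*, and *Mitf* on the left (0.54 to 0.80) holds on the right for *Adgre1* and *Mitf* (0.65) and not for *Cebpa* (-0.16 and -0.34).

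The genes most like each of the 9 were sought among 10666 others with a mean above the background median. The highest of so many values over 16 arrays are high in part by selection. The values within groups come from the same arrays and are no separate check. Most like *Adgre1* were *Man2b1* (r = 0.96; 0.72 within groups), *Gclm* (0.96; 0.56), and *Anxa5* (0.95; 0.81), and most like *Cebpa* were *Mxd4* (0.95; 0.75), *Rassf3* (0.94; 0.83), and *Rrp1* (0.94; 0.76). For *Maf* they were *Gpr65* (0.96; 0.82), *Cd47* (0.94; 0.74), and *Usf3* (0.94; 0.78). *Mitf* was followed most closely by *Sult1a1* (0.93; 0.80), *Dcstamp* (0.93; 0.74), and *Tmem176b* (0.91; 0.77), and *Tfec* by *Id2* (0.92; 0.70), *Psmc6* (0.91; 0.85), and *Snx24* (0.90; 0.62). *Dcstamp* and *Id2* also belong to the lists above. The likest genes of *Batf3* were *Cd59b* (0.89; 0.82), *Actn3* (0.85; 0.85), and *Tfrc* (0.84; 0.65), those of *Klf4* were *Endod1* (0.83; 0.79), *Smox* (0.80; 0.75), and *Drosha* (0.80; 0.82), and those of *Cebpb* were *Gypc* (0.79; 0.72), *Sh2b2* (0.77; 0.34), and *Cd5l* (0.76; -0.04). For *Spi1*, whose signal hardly varied, the highest values were 0.81 (*Zfp74*), 0.79 (*Supt20*), and 0.78 (*Exd1*).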

How the data were processed

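RNA of the 16 cultures was labelled with the GeneChip WT PLUS kit. The deposited values are log2 signals per probe set, normalized between arrays by the authors. The submitters' notes name Affymetrix Expression Console. The methods name Transcriptome Analysis Console for quality control and for finding differentially expressed genes, a step done with limma here. Neither the normalization nor the build and annotation behind the probe sets are given in the sources used here. Of 28846 probe sets, 6640 controls and 2634 without a gene symbol were left out. Of 55 genes with more than 1 probe set, the one with the highest mean was kept, so that 19505 genes were tested, low signals included. All gene IDs were found in the RefSeq table of assembly GRCm38.p6. No 2 arrays held identical values (highest correlation 0.9946).

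A linear model without covariates was fitted to all 16 arrays in limma 3.58.1 with eBayes (R 4.3.3), with Benjamini-Hochberg adjustment over all genes. The code was tested on simulated data. The number of arrays limits the precision. Figures used Python 3.11.15 and matplotlib 3.10.9.

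The 9 genes, the 13 gene lists, and the tests were chosen with earlier results of these data known. Genes named besides the 9 and *Camkk2* were the 3 likest of each and up to 4 per list by smallest adjusted p, with list genes that went against their list. Genes that were named outside this rule (*Tfe3*, *Tfeb*, *Irf8*, *Camp*, *Mpo*, *Elane*, *Clec9a*, *Xcr1*, *Itgae*, *Flt3*, *Wdfy4*) were chosen after their values were seen. Genes of the lists without a probe set of their symbol were not analysed here. Alternatives were each array left out, the 8 arrays of a comparison, trended and robust variances, array weights, repeated quantile normalization, median centring, a filter on low signal, the mean over probe sets, all probe sets, a stricter threshold, a factor for replicates 1 and 2 against 3 and 4, and the replicate number as a block. Leaving out WT TCM replicates 1 and 3 together was added after seeing the data.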

Additional observations from a re-analysis of the deposited data

How the results depend on the processing

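For the 9 genes, 1169 of 1251 differences recomputed under alternatives kept their direction and their side of the threshold. This count does not measure robustness, because part of it could hardly change. Leaving out an array from outside a pairwise comparison left the difference as it was and moved only its adjusted p. Each of the 9 genes had 1 probe set, so the mean over probe sets could not alter their differences. The count of the 9 genes that passed with TCM in WT cells went from 2 to 1 in the fit to 8 arrays, after median centring, and without WT TCM replicates 1 and 3, to 0 at an adjusted p under 0.01, and ranged from 1 to 3 with 1 array left out. Between genotypes in TCM it went from 2 to 1 in the fit to 8 arrays and to 0 at an adjusted p under 0.01 and without WT TCM replicates 1 and 3, with a range of 0 to 3 with 1 array left out. Among the settings that kept all single arrays or left out a pair, the highest count was 3 in both of these comparisons. In *Camkk2-/-* cells with TCM the range was 4 to 6, and in RM between genotypes the count was 0 each time. The interaction count was 1 in place of 0 with trended and robust variances (*Adgre1*) and 0 with any 1 array left out. Among the 9 genes, directions turned only for differences near 0 that had not passed. Median centring gave -0.001 for *Spi1* with TCM in *Camkk2-/-* cells and -0.023 for *Batf3* between genotypes in RM, and quantile normalization gave -0.027 for the latter. Without WT TCM replicates 1 and 3 the interaction was -0.246 for *Maf* and -0.009 for *Tfec*, and with array weights it was 0.01 for *Mitf*. Some differences turned in part of the fits with 1 array left out, and their full ranges over these fits follow. *Klf4* with TCM in WT cells ranged from -0.343 to 0.103. With TCM in *Camkk2-/-* cells the ranges were -0.019 to 0.078 for *Spi1* and -0.044 to 0.174 for *Cebpb*. Between genotypes they were -0.124 to 0.164 for *Batf3* in RM and -0.18 to 0.042 for *Tfec* in TCM. In the interaction they were -0.063 to 0.292 for *Maf* and -0.169 to 0.008 for *Mitf*. The cause was not tested.

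The replicate number as a block moved the counts over all genes little (567 to 576 and 2242 to 2253 for TCM in WT and *Camkk2-/-* cells, 144 to 173 and 876 to 883 between genotypes in RM and TCM, 28 to 32 for the interaction), and the counts of the 9 genes stayed 2, 6, 0, 2, and 0. Deviations of same-numbered RM and TCM arrays correlated from -0.135 to 0.189. As not every pair was above 0.1 and no source ties the numbers to shared marrow, they were not taken to pair the arrays, although 6 of 8 RM arrays correlated best with the TCM array of their own number, a hint from the data and not from the design. Without WT TCM replicates 1 and 3 the count over all genes between genotypes in TCM was 362 in place of 876, and 4 in place of 28 for the interaction. *Batf3* and, in lesser degree, *Klf4* lie near background, which limits their differences.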

Other observations

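Other marker lists were counted in the same way. Of 6 mast cell, basophil, and eosinophil markers, 2 rose with TCM in WT cells and 4 in *Camkk2-/-* cells, and 1 was higher in *Camkk2-/-* TCM-BMDM than in their WT counterpart. *Mcpt8*, a basophil protease, rose by 2.41 and 2.82 (adjusted p = 0.000773 and 2.48e-05) and was 1.38 higher in *Camkk2-/-* TCM-BMDM (0.0413). Its RM means, 5.04 in WT and 6.02 in *Camkk2-/-* cells, and those of *Prg2*, 5.64 and 6.00, lay below the upper quartile of background, so that the sizes of these differences depend on the background level. *Cpa3*, a mast cell and basophil protease, rose by 1.26 and 1.63 (0.0428 and 0.002), and *Prg2*, an eosinophil granule protein, and *Fcer1a*, an IgE receptor chain, rose by 1.90 and 1.13 in *Camkk2-/-* cells (0.00249 and 0.0144). The group means of *Fcer1a* were 4.29 to 5.42, around the background median.

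Of 4 of 6 erythroid and megakaryocyte markers measured, *Pf4*, a platelet chemokine that macrophages also make, rose by 1.92 in WT cells (0.000941) and differed by 0.59 in *Camkk2-/-* cells (0.251). None of 6 lymphocyte markers measured passed limma's test in any comparison, with up to 3 at an unadjusted p under 0.05 (*Cd79a* averaged 6.09 and *Cd3e* 4.66). Of 4 stromal markers, *Dcn* passed in *Camkk2-/-* TCM-BMDM against *Camkk2-/-* RM-BMDM and WT TCM-BMDM (log2 differences of 0.96 and 0.93, 0.00181 and 0.00585), with a mean there of 4.93, below the background median.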
